A study of Mus musculus with 6 samples.

Results

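The 8 genes described here encode the mouse cohesin complex and the proteins that put it on and take it off chromosomes. Rec8 was listed with Rad21, Smc1a, Smc3, Stag1, Stag2, Nipbl and Wapl, and all probe sets that the platform annotation assigns to these genes were taken, each on its own. They had 27 probe sets among 45037 tested, and the genes are 8 of 18193 measured by a probe set of their own. The list was chosen by Rec8's log2 fold change between these same arrays, so the members' differences between the groups are given as a description. No p-value is given for them, and where members called are counted, the share over all probe sets stands beside the count and nothing is read from it.

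The cells were CAD, a neuroblastoma line from mouse with catecholaminergic features, grown in medium with serum and transfected with a plasmid. The plasmid group received RIPmiR-124a-2, which expresses miR-124a-2, from which cells make miR-124, a microRNA abundant in the brain (3 arrays). The vector group received the empty plasmid, the RI vector, without it (3 arrays). The labels call the arrays biological replicates and give neither the time after transfection nor the share of cells transfected.

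Cohesin is a ring that holds sister chromatids together from replication to anaphase and folds interphase chromatin into loops. The ATPase rods Smc1a and Smc3 form a dimer that a kleisin subunit, Rad21 in dividing somatic cells, closes into a ring. A Stag subunit binds the kleisin, Nipbl helps to load the ring onto DNA, and Wapl opens it for release. In meiosis Rec8 takes the place of Rad21, and Stag3 and Smc1b take the places of their somatic counterparts. In neurons, which no longer divide, the loop function of cohesin remains.

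The sequences before a transcript start of each of the 3 meiotic subunit genes are shown because Rec8 is the member whose signal differed between the groups, whereas Stag3 and Smc1b, its usual partners in meiosis, stayed dim. In mouse somatic cells Stag3 and Smc1b are known to be kept silent through the repressor E2F6. The 250 bases before each start are from RefSeq on GRCm38 and 1 start per gene, read 5′ to 3′ on the gene's strand, with matches on either strand to TCCCGC, an E2F-type core, or CACGTG, an E-box, in capitals.
Rec8 (chr14:55617916-55618165, + strand): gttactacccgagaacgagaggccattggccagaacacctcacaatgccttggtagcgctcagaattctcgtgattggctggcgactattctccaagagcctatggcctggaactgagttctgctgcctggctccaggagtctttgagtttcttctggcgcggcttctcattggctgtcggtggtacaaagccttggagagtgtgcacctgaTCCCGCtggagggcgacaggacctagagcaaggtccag
Stag3 (chr5:138280259-138280508, + strand): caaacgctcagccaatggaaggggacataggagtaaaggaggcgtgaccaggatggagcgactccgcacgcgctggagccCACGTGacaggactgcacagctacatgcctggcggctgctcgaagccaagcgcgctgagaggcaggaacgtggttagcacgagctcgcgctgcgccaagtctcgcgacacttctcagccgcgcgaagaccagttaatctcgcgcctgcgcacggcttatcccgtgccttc
Smc1b (chr15:85131958-85132207, − strand): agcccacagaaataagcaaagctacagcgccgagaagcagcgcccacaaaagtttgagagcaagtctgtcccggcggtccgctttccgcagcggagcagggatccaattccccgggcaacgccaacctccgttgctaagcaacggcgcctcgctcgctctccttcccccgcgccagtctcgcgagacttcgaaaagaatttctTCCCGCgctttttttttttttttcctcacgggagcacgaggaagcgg
These starts are not always where the gene record begins: that of Rec8 (55618166) lies 164 bases inside its record, which begins at 55618002, and that of Stag3 lies 7995 bases inside, while that of Smc1b is the record's own. The Rec8 window thus overlaps the beginning of the Rec8 record. Counted from the starts used, TCCCGC begins 38 bases before that of Rec8 and 47 bases before that of Smc1b, and is not in this window of Stag3. The Stag3 window holds CACGTG instead, beginning 170 bases before the start used, and the other 2 windows hold none. The letters TCCCGC, on either strand, occur in 16.9% of 32851 RefSeq windows of this length, and CACGTG in 6.02%, and the motifs do not overlap. The Rec8 window has 10 CpG dinucleotides, against 26 for Stag3, 25 for Smc1b and a median of 6 over all windows. RefSeq windows were matched for 5 of the 8 members, and TCCCGC occurs in 3 of them, Rec8, Smc3 and Stag1. The start used lies 45739 bases inside the record of Stag1 and 1549 inside that of Wapl, and is the record's own for Smc3 and Smc1a. A match of letters is a description and not a binding site.

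The arrays fell into sets that followed the groups only in part. The log2 signals spread less on plasmid replicates 1 and 2 and vector replicate 1, called narrow here (interquartile range 3.06 to 3.10), than on the remaining arrays, called wide (3.26 to 3.35). Poly-A control probe sets averaged 5.97 on plasmid replicate 1 and 5.96 on vector replicate 1, while the other 4 arrays had 5.57 to 5.71. Markers fixed for the labelled line were bright in part: the noradrenergic genes Dbh, Phox2a and Hand2 reached 10.65, 11.57 and 11.42, whereas Slc18a2, the vesicular monoamine transporter, lay between 3.70 and 4.16. Between these lay Th (6.26 to 7.02), Ddc by its brightest probe set (5.09 to 5.99) and Gata3 (5.04 to 5.70). The 9 probe sets of 8 germ cell markers lay between 2.86 and 5.13 on all arrays, those of fibroblasts between 3.15 and 5.17, of macrophages between 3.12 and 4.25 and of astrocytes between 3.07 and 5.08. The trp probe sets, for a bacterial gene with no added transcript, ran from 3.02 to 3.70, which serves only as a rough mark of a dim signal, since each probe set has its own background.

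Rec8 was higher with miR-124a-2, and in none of the 26 probe sets of its 7 companions did the groups separate. Rec8, the meiotic kleisin, had log2 signals of 7.83, 7.70 and 7.90 in plasmid arrays, against 6.92, 6.78 and 6.76 in vector arrays. Every plasmid array was above every vector array, and the gap between the groups was wider than the range within either. The means were 7.81 ± 0.10 in the plasmid group and 6.82 ± 0.09 in the vector group (SD, n = 3 each), a log2 fold change of 0.99 (SE 0.10) or 1.99-fold. The difference was 0.85 within the narrow arrays (2 plasmid and 1 vector) and 1.13 within the wide arrays (1 plasmid and 2 vector). Rec8's signal did not follow the array sets: with the set as a block the wide minus narrow difference was -0.01. Rec8 has 1 probe set (1419147_at), so no second measurement of its transcript was made on these arrays. Neuronal markers had a summed log2 level of 62.71 to 63.80 in plasmid arrays and 60.55 to 61.26 in vector arrays, and catecholaminergic markers 54.15 to 55.56 in plasmid arrays and 53.10 to 53.89 in vector arrays. Both sums were without overlap between the groups, as Rec8 was. Taken singly, 8 of 13 neuronal and 2 of 12 catecholaminergic probe sets were higher without overlap, against 6.28% of all probe sets. In both lists 0 were lower without overlap. The 2 catecholaminergic ones were those of Th and the brighter of Ddc, and Slc18a2 had a log2 fold change of -0.13. The part of these markers in Rec8's value was not tested. In bulk RNA, a change in every cell and a larger change in the transfected cells alone cannot be told apart.

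**Figure D1:**
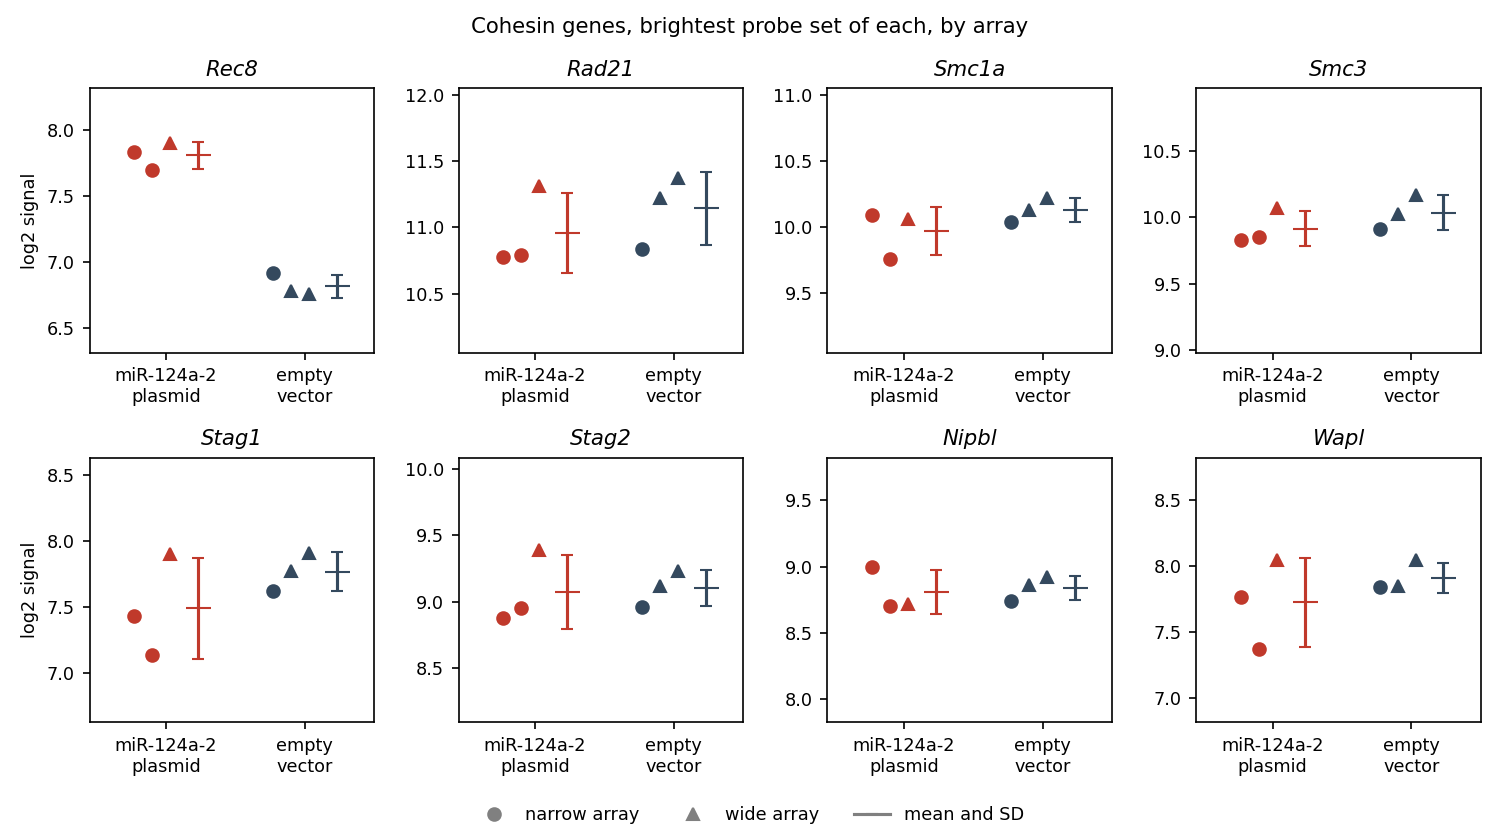
Log2 signal of the brightest probe set of each cohesin gene on each array, with the miR-124a-2 plasmid group left of the empty vector group; points are arrays (circles narrow, triangles wide), and the line with bars is the mean ± SD of 3 arrays. Each panel spans 2 log2 units, and Rec8 is the panel in which the groups separate (7.70 to 7.90 against 6.76 to 6.92).

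By the fit over all probe sets (limma, adjusted p under 0.05), 1 of the 27 member probe sets was called, that of Rec8, where 0.269% of all 45037 were called and 0.06% were called higher. Since Rec8 was listed for this difference, nothing is read from that count. At an unadjusted p under 0.05 it was likewise 1 of the 27, against 8.19% of all probe sets, and with the array set as a block 1 of the 27, against 1.13% (0.44% called higher). Values without overlap between the groups were seen in 1 of the 27, against 13.2% of all probe sets (6.28% without overlap and higher). Over the 26 probe sets of the other 7 genes the median log2 fold change was -0.13, against 0 over all probe sets, with a range from -0.30 to 0.26. In 21 of the 26 it was below 0, and in 0 of them did the groups separate. Their standard errors ran from 0.09 to 0.28.

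**Figure D2:**
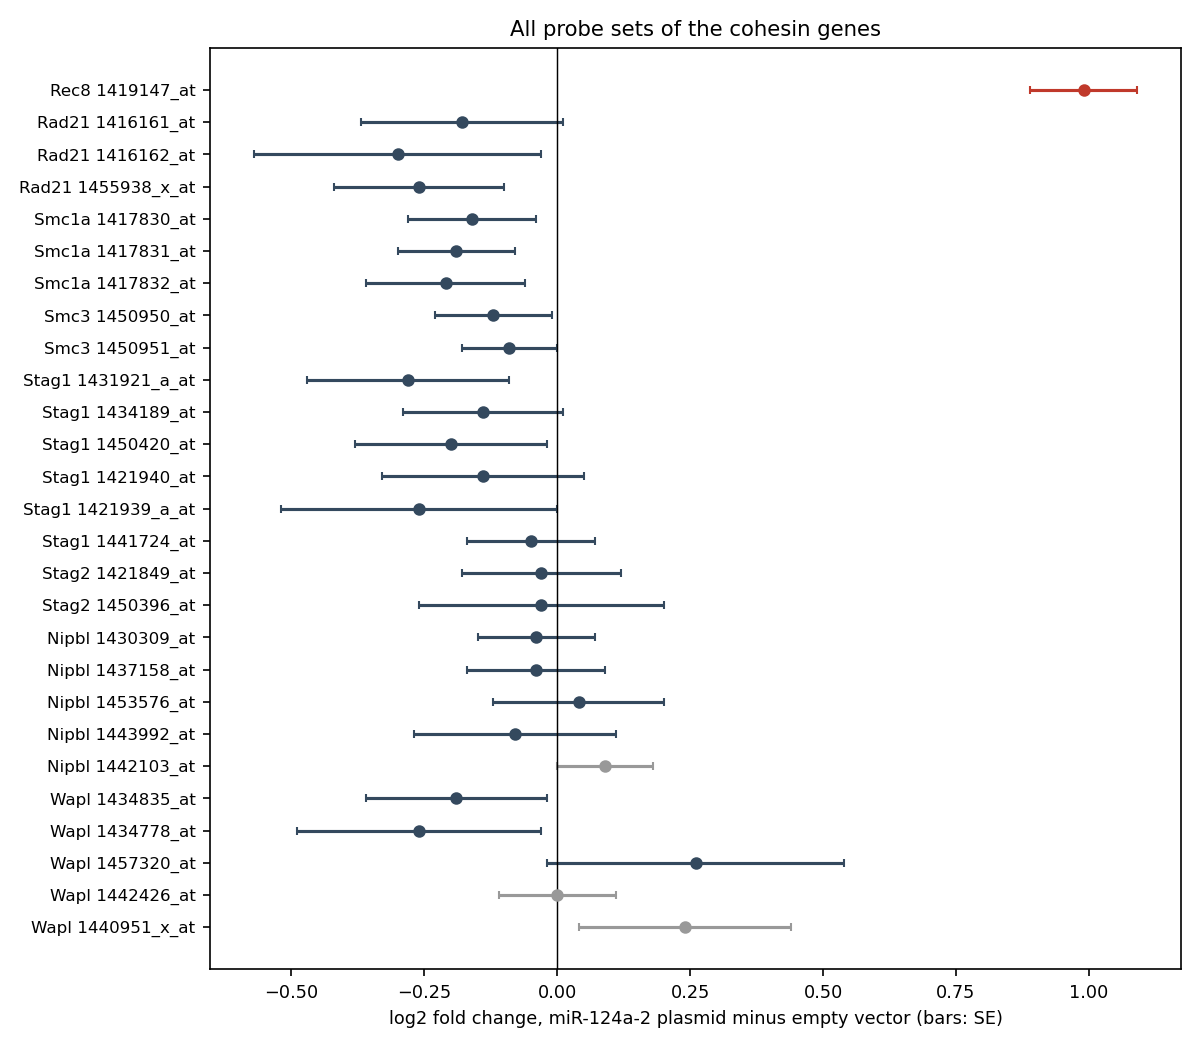
Log2 fold change (miR-124a-2 plasmid minus empty vector, bars SE) of all 27 probe sets of the 8 cohesin genes, brightest first within each gene; grey marks probe sets whose mean was under 3.70, the highest value of the absent bacterial control. Rec8 stands at 0.99 and the other 26 lie between -0.30 and 0.26.

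Rad21, the kleisin that Rec8 replaces in meiosis, was measured by 3 probe sets, all of them below 0. Its brightest (1416161_at) had 10.78, 10.79 and 11.31 in plasmid arrays, against 10.84, 11.22 and 11.37 in vector arrays. The groups overlapped, and in both groups the wide arrays were the higher ones. Its log2 fold change was -0.18 (SE 0.19, 95% interval -0.61 to 0.25), and -0.02 (SE 0.09) with the array set as a block. The second Rad21 probe set (1416162_at), designed from the same sequence record, had -0.30 (SE 0.27) and differed by 0.64 between the array sets. The third (1455938_x_at), whose probes may also match other transcripts, had -0.26 (SE 0.16).

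All 5 probe sets of the ATPase rods had values below 0, each under 2 standard errors in size. Smc1a, by its brightest probe set (1417830_at), had 10.09, 9.76 and 10.06 in plasmid arrays and 10.04, 10.13 and 10.22 in vector arrays. Plasmid replicate 2 was the lowest array and the groups overlapped, with a log2 fold change of -0.16 (SE 0.12, 95% interval -0.43 to 0.11). The other Smc1a probe sets had -0.19 (SE 0.11) and -0.21 (SE 0.15), so that the 3 values for this X-linked gene differed by less than their errors. Smc3, by its brightest probe set (1450950_at), had 9.83, 9.85 and 10.07 in plasmid arrays and 9.91, 10.03 and 10.17 in vector arrays, a log2 fold change of -0.12 (SE 0.11). Its dimmer probe set from the same record had -0.09 (SE 0.09).

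The Stag subunits bind the kleisin and set where cohesin stays. Stag1 had 6 probe sets, of which 3 share a sequence record, and all 6 were below 0, between -0.28 and -0.05. Its brightest (1431921_a_at) had 7.43, 7.14 and 7.90 in plasmid arrays and 7.62, 7.77 and 7.91 in vector arrays. The spread within the plasmid group (SD 0.39) exceeded the difference of -0.28 (SE 0.19), and the value was -0.34 within the narrow arrays but 0.06 within the wide arrays. Stag2 (1421849_at) had 8.88, 8.95 and 9.39 in plasmid arrays and 8.96, 9.12 and 9.23 in vector arrays. Both Stag2 probe sets had log2 fold changes of -0.03 (SE 0.15 and 0.23), and with the set as a block the wide arrays exceeded the narrow by 0.50 in the second (1450396_at).

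The loader and the release factor had probe sets on both sides of 0. Nipbl, by its brightest probe set (1430309_at), had 9.0, 8.70 and 8.72 in plasmid arrays and 8.74, 8.86 and 8.92 in vector arrays, a log2 fold change of -0.04 (SE 0.11, 95% interval -0.30 to 0.23). Its 5 probe sets lay between -0.08 and 0.09, the smallest range of the genes with more than 3. Wapl, by its brightest probe set (1434835_at), had 7.76, 7.37 and 8.04 in plasmid arrays and 7.84, 7.85 and 8.04 in vector arrays, a log2 fold change of -0.19 (SE 0.17). Plasmid replicate 2 was the lowest array there, and also in 1434778_at (6.32, against 6.99 to 7.31 on the other 5 arrays). In 2 dimmer Wapl probe sets that share a sequence record, the same array was the highest: 1457320_at had 5.35 there and 4.13 to 4.43 elsewhere, and 1440951_x_at had 4.07 there and 3.27 to 3.40 elsewhere. Their log2 fold changes were 0.26 (SE 0.28) and 0.24 (SE 0.20), and within the wide arrays, which do not include that array, the differences were -0.19 and -0.05.

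For the brightest probe set of each of these 7 genes, the 95% intervals of the log2 fold change together ran from -0.71 to 0.32. The lowest end was that of Stag1 and the highest that of Stag2. All 7 of these log2 fold changes were below 0. Over all 26 probe sets the intervals reached from -0.93 (Rad21, 1416162_at) to 0.89 (Wapl, 1457320_at).

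The narrow and wide arrays differed more in these genes than the groups did. With the array set as a block, 22 of the 26 probe sets other than Rec8 were higher in wide arrays, by a median of 0.25, against a median of -0.03 over all probe sets. More vector than plasmid arrays were wide, and with this block the median log2 fold change of the 26 was -0.05 and its range -0.15 to 0.19. Within the narrow arrays alone their median difference was -0.05, and within the wide arrays -0.02.

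**Figure D3:**
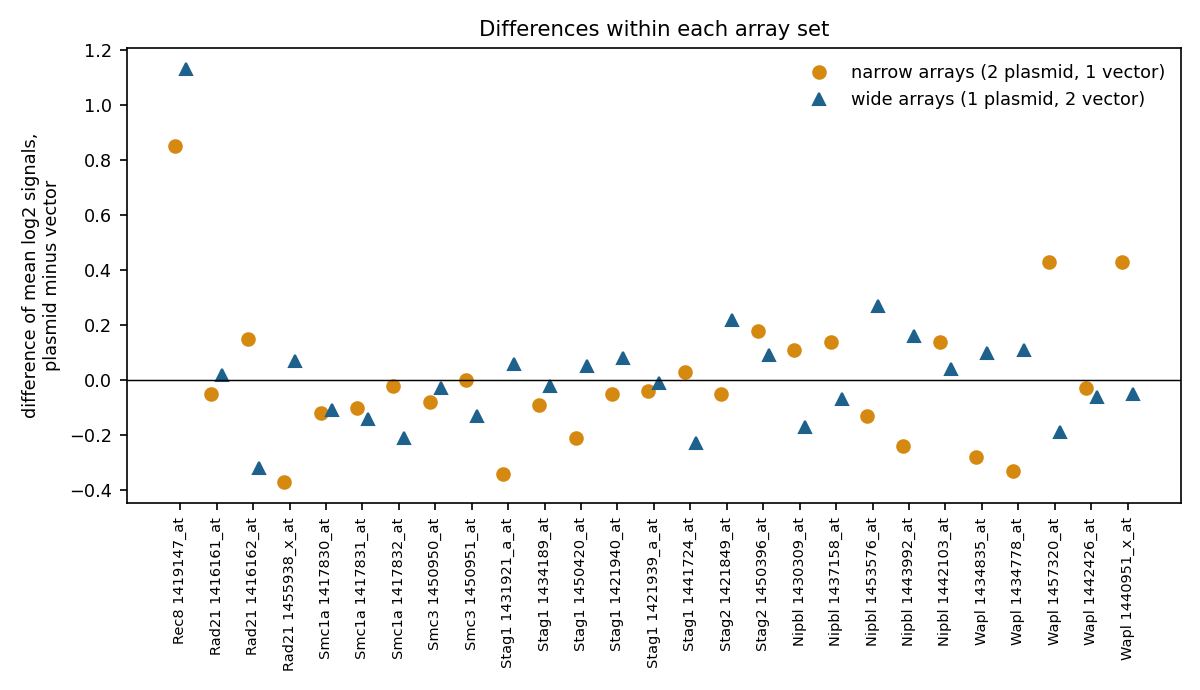
Difference of mean log2 signals (miR-124a-2 plasmid minus empty vector) for each of the 27 probe sets, computed within the narrow arrays (circles) and within the wide arrays (triangles). Rec8 had 0.85 and 1.13, and the other 26 scattered around 0 with medians of -0.05 and -0.02.

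The other genes of the pathway were taken from a list of 18 further subunits and regulators, of which Rad21l was not matched. None of the 33 probe sets of the 17 measured genes passed in limma in either direction, while 0 were higher and 10 lower at an unadjusted p under 0.05, against 3.43% and 4.76% of all probe sets. The groups did not overlap in 7 of them, all lower, against 6.97% of all probe sets that separated in that direction. The median log2 fold change of the brightest probe sets was -0.35, against 0.02 over all genes, and -0.24 with the array set as a block. Dscc1, part of the clamp loader that aids cohesion during replication, had 5.74, 6.09 and 6.43 in plasmid arrays and 6.80, 7.09 and 6.90 in vector arrays. Its groups did not overlap, and the log2 fold change was -0.84 (SE 0.17, adjusted p = 0.127 by limma), but a dimmer probe set of Dscc1 had -0.04 (SE 0.14). Sgo1, which shields centromeric cohesin from removal in mitosis, had 6.55, 6.66 and 6.93 in plasmid arrays and 7.27, 7.50 and 7.50 in vector arrays by its brighter probe set. That difference was -0.71 (SE 0.13, adjusted p = 0.0896 by limma), and its dimmer probe set had -0.76 (SE 0.25).

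With the array set as a block, 2 of these genes were called lower, each by its brighter probe set, where 0.693% of all probe sets were: Sgo1 (-0.62, adjusted p = 0.025 by limma) and Cdca5 (-0.56, adjusted p = 0.0453 by limma), which encodes sororin, the protein that holds Wapl off replicated chromatin. Their dimmer probe sets were not called with that block (-0.54 and -0.69, adjusted p = 0.11 and 0.0573 by limma). Cdca5 is named here for the call of its brighter probe set, after its values were seen. That probe set had 8.31, 8.32 and 8.55 in plasmid arrays and 8.86, 9.24 and 9.0 in vector arrays, groups that did not overlap. Mau2, the partner of Nipbl in loading, had 0.09 (SE 0.11), and Pds5a and Pds5b, which bind the kleisin and act in both release and cohesion, had -0.07 (SE 0.24) and 0.04 (SE 0.10), each by its brightest probe set. Stag3 had 3.81, 3.67 and 3.59 in plasmid arrays and 3.60, 3.57 and 3.41 in vector arrays, and Smc1b had 4.09, 3.99 and 3.99 in plasmid arrays and 4.04, 4.08 and 3.94 in vector arrays. These meiotic partners of Rec8, named for that role after their values were seen, were dim on every array and their groups overlapped (log2 fold changes 0.17 and 0.00, SE 0.10 and 0.09).

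Markers of proliferation had lower summed levels in plasmid arrays. All 4 measured genes of that list had brightest probe sets below 0, with a summed log2 level of 38.50 to 40.21 in plasmid arrays and 40.44 to 42.02 in vector arrays. Mcm2, a subunit of the replicative helicase, fell by 1.00 (log2, SE 0.14) in its brightest probe set, with adjusted p = 0.0381 by limma. It was the 1 of 7 probe sets that passed, against 0.209% of all called lower. Mki67 had -0.41, Cdk1 -0.43 and Top2a -0.51, and a dimmer Top2a probe set had 0.21 (SE 0.28). In Mki67 and Top2a the groups overlapped. The brightest probe sets were higher in wide arrays by a median of 0.37, and their median log2 fold change was -0.47, or -0.35 with the array set as a block. The part of these markers in the values of the cohesin regulators was not tested.

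Condensin and the Smc5/6 complex are built on related SMC rods. None of the 37 probe sets of their 14 genes passed in limma, with 0 higher and 12 lower at an unadjusted p under 0.05, against 3.43% and 4.76% of all probe sets. The groups separated in 9 of them, all lower, against 6.97% of all probe sets. All 14 brightest probe sets were below 0, with a median of -0.32 (-0.22 with the array set as a block). Ncapg2, a subunit of condensin II, had 5.86, 5.97 and 6.62 in plasmid arrays and 6.76, 7.05 and 7.27 in vector arrays, a difference of -0.87 (SE 0.21, adjusted p = 0.202 by limma). Smc2, the rod shared by both condensins, had -0.78 (SE 0.19) in 1429658_a_at and -0.53 (SE 0.15) in its brightest probe set. Both genes were called lower with the array set as a block, where 0.693% of all probe sets were, at adjusted p = 0.0384 and 0.0257 by limma (for Smc2 in 1429658_a_at). The lower summed level of the proliferation markers stands beside these values too, and its part in them was not tested.

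No gene of the meiotic list was called beside Rec8. None of the 33 probe sets of 28 measured meiotic genes passed in limma, with 0 higher and 3 lower at an unadjusted p under 0.05, against 3.43% and 4.76% of all probe sets, and the median of the brightest was -0.03. The groups separated in 2 higher and 2 lower probe sets, near the shares of 6.28% and 6.97% over all probe sets. Of these probe sets, 15 had means under the highest value of the absent bacterial control, among them that of Sycp3, a component of the chromosome axis with which Rec8 cohesin assembles (log2 fold change 0.01, SE 0.09). The values of largest size were negative. Mnd1 had 5.32, 5.26 and 5.76 in plasmid arrays and 5.59, 6.03 and 6.14 in vector arrays, a difference of -0.47 (SE 0.18, adjusted p = 0.526 by limma). Its partner in meiotic strand exchange, Psmc3ip, had -0.35 (SE 0.11, adjusted p = 0.349 by limma) in its dimmer probe set. The brighter probe set of Psmc3ip had -0.23 (SE 0.14), and its groups overlapped. Germ cell markers had a summed level of 28.98 to 30.96 in plasmid arrays and 29.34 to 30.60 in vector arrays.

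**Figure D4:**
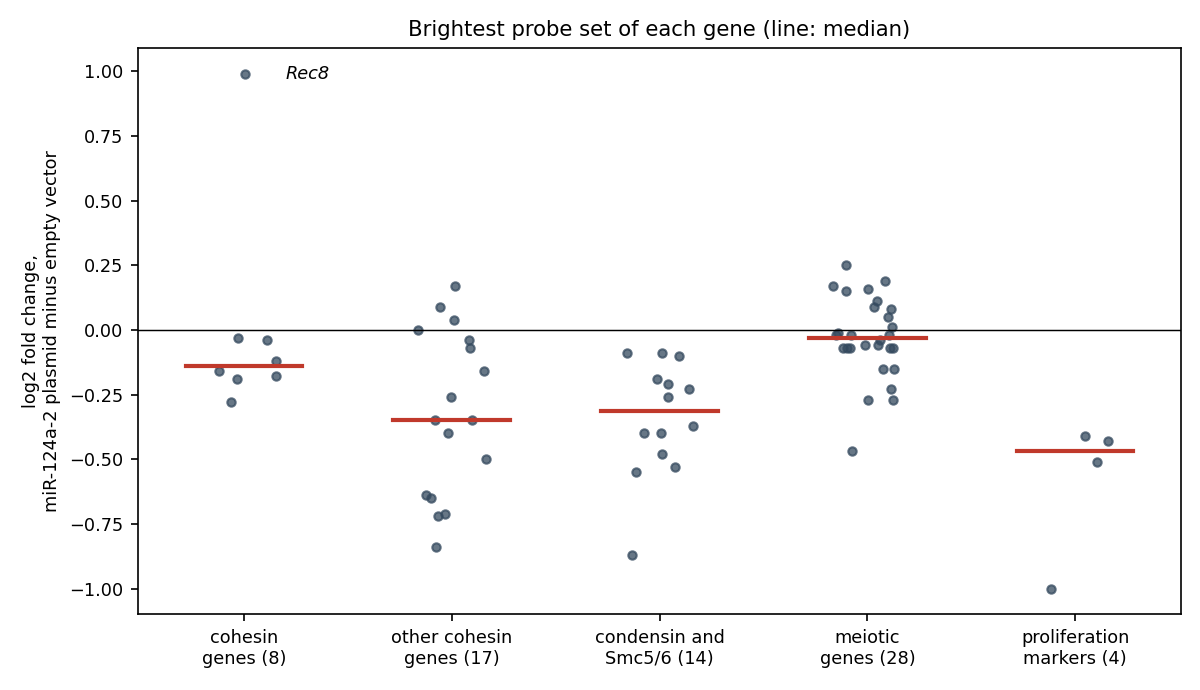
Log2 fold change (miR-124a-2 plasmid minus empty vector) of the brightest probe set of each gene in 5 lists, with the number of genes in brackets and the median as a line. Rec8 is the point at 0.99; the medians of the other cohesin genes, condensin and Smc5/6, meiotic genes and proliferation markers were -0.35, -0.32, -0.03 and -0.47.

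Rec8 lies on mouse chromosome 14 at 55618002 to 55625395 (GRCm38, + strand), in a dense cluster of genes, and its end is 4 bases from that of Ipo4 on the opposite strand. The 5 protein-coding genes on each side were examined, and of these Psme2 had no probe set of its own. None of the 14 probe sets of the other 9 passed in limma, where 0.269% of all probe sets did, and 0 had an unadjusted p under 0.05, against 8.19% of all. With 14 probe sets, a count of 0 is near those shares. Irf9, a transcription factor of the interferon response and the nearest gene before Rec8, had 4.86, 5.72 and 5.93 in plasmid arrays and 4.90, 5.34 and 5.31 in vector arrays. The groups overlapped, with the replicate 1 arrays lowest in both, and the log2 fold change was 0.32 (SE 0.26, adjusted p = 0.877 by limma). Psme1, a proteasome activator subunit, had 9.55 in each plasmid array and 9.37, 9.41 and 9.32 in vector arrays, a difference of 0.18 (SE 0.09, adjusted p = 0.67 by limma) with no overlap. Ipo4, an importin, had -0.13 (SE 0.14) by its brightest probe set.

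**Figure D5:**
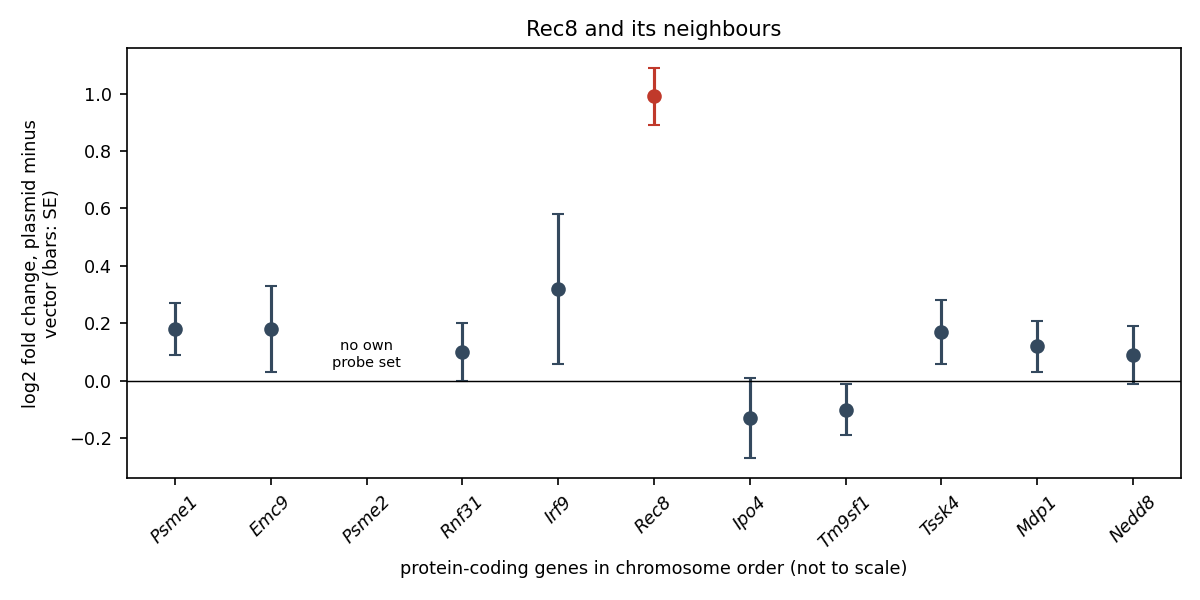
Log2 fold change (miR-124a-2 plasmid minus empty vector, bars SE) of the brightest probe set of Rec8 and of the 5 protein-coding genes on each side, in chromosome order and not to scale. Rec8 stands at 0.99, and the neighbours with a probe set of their own lie between -0.13 and 0.32.

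The probe sets whose pattern over the 6 arrays was most like that of Rec8 were those of Enho (Pearson r = 0.9973), Rufy3 (0.9967) and Dcaf5 (0.9946), out of 7844 with 1 gene, a mean above 5 and an SD above 0.2. With 6 arrays in 2 groups, such values mostly mark a difference between the groups with little spread inside them, and the probe sets share the same 6 RNA samples. Enho, which encodes the secreted peptide adropin, had 7.67, 7.57 and 7.73 in plasmid arrays and 7.05, 7.01 and 6.92 in vector arrays. Rufy3, a protein of neuronal axons, had 8.31, 8.29 and 8.48 in plasmid arrays and 7.06, 6.74 and 6.79 in vector arrays. Dcaf5, a substrate receptor of a ubiquitin ligase, had 6.72, 6.53 and 6.70 in plasmid arrays and 5.75, 5.74 and 5.73 in vector arrays. In all 3, as in Rec8, plasmid replicate 2 was the lowest plasmid array. The differences of 0.66, 1.49 and 0.91 are descriptions, since likeness to Rec8 chose these probe sets.

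Rec8 was no longer called in most fits that left out 1 array, and in those fits few or no other probe sets were. Its log2 fold change stayed between 0.95 and 1.05 when any array was left out. The number of member probe sets called was 0 without plasmid replicate 1 or 2, or without vector replicate 1, 2 or 3, where 0 to 12 of all probe sets were called, and 1 without plasmid replicate 3, where 356 were.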

How the data were processed

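Per the labels' protocols, Trizol-extracted total RNA (6 ug) was turned into biotinylated cRNA for Affymetrix arrays. The authors deposited log2 signals from RMA, per the submitters' processing notes, with 1 value for each probe set and array. The RMA version and probe definitions are not given in the sources used here. The 6 columns held 45101 probe sets with 0 missing values, and 64 control probe sets were left out of the tests. Arrays give no read depth, and their number limits the precision.

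Gene names came from a platform annotation dated 2016: 34945 probe sets had 1 gene, 932 several (named for none) and 9160 were not listed. Symbols were checked by Entrez ID against RefSeq (GRCm38), and 0 changed. The main comparison used limma 3.58.1 under R 4.3.3, fitting lmFit and eBayes without a block (two-sided tests), and p-values were adjusted by Benjamini-Hochberg over 45037 probe sets with a threshold of 0.05; adjusted p-values in the text are from this fit, or from the same fit with the array set as a block where that is said. The model was tested on simulated data. Array sets were divided at the largest gap in interquartile range.

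The members and gene lists were chosen with earlier results of these data known. Named genes are all members, list genes that passed or, where none did, the 2 of largest change, and the 3 most like Rec8 by Pearson correlation; others are pointed out. Alternatives were 3 blocks, leaving out arrays, other normalizations, variance models, filters and thresholds. The sequence of miR-124 is not shown. P-values set the difference between the groups against the spread between these arrays, as moderated by limma over all probe sets. The labels call the arrays biological replicates.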

Additional observations from a re-analysis of the deposited data

How the results depend on the processing

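Rec8 kept its direction under all 19 alternatives and within both array sets, at 0.85 (narrow) to 1.13 (wide), and passed in 12 of the 19. The threshold of 0.01 is among the 19 and is no refit. Since Rec8 was listed for this difference on these same arrays, nothing is read from its direction or from that count. Of 521 values of the other 26 member probe sets under alternatives, 511 moved by less than 1 SD between replicates, and 9 of the other 10 were values within 1 array set. Part of that count was fixed in advance. The replicate and poly-A blocks are balanced over the groups, and the variance models, filters and threshold leave each log2 fold change as it was. The count is therefore no measure of stability. Of all probe sets, 121 were called in the fit reported, against 673 with the replicate block, 510 with the array set as a block, 340 with a poly-A block, 268 with quantile normalization, 244 with cyclic loess, 218 with an intensity trend, 229 with that trend and robust estimation, 39 with median centring, 0 with replicates 2 and 3 only (3730 at an unadjusted p under 0.05 in limma) and 0 at an adjusted p under 0.01. Under the last 2 settings 0 member probe sets were called. Leaving out each array gave 0 to 356 of all probe sets, 0 to 1 member probe sets, 0 to 3 other cohesin genes and 0 to 1 condensin and Smc5/6 genes. Other cohesin genes, of which 0 passed, numbered 3 with the replicate block (Cdca5, Dscc1 and Sgo1), 2 with the array set as a block, 2 with a poly-A block (Dscc1 and Sgo1), and 1 with quantile normalization, cyclic loess or the brightest probe set per gene (Sgo1). Condensin and Smc5/6 genes, of which 0 passed, numbered 3 with the replicate block (Ncapg2, Smc2 and Smc4) and 2 with the array set as a block. Meiotic genes and Rec8's neighbours stayed at 0 in the settings run. The causes were not tested.

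The replicate numbers were not taken to pair the arrays. Deviations of same-numbered arrays from their group means correlated at 0.58, 0.03 and 0.56 for replicates 1, 2 and 3, and plasmid replicate 2 correlated best with vector replicate 1 (0.09).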
